A study of Rattus norvegicus with 6 samples.

Results

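The genes described here are the potassium channel genes of the rat, taken as every gene whose platform symbol begins with Kcn, followed by letters and a digit. There were 86 such genes among the 18166 genes measured, and all 86 were tested without a filter on signal. They were parted by symbol into 35 pore-forming genes of the voltage-gated (Kv) channels, 12 genes of Kv auxiliary subunits, 15 genes of the inward rectifiers (Kir, Kcnj), 13 genes of the two-pore channels (Kcnk) and 11 genes of the calcium-activated channels and their relatives (Kcnma, Kcnmb, Kcnn, Kcnt and Kcnu). The brightest probe set stood for each gene, and Kcnk6 alone had more than 1. The rule takes members by symbol alone, but it was set with earlier results of these data known.

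The cells were primary hippocampal neurons of rat embryos at day 18, kept in 10 µM FUDR, a nucleoside analogue that limits dividing cells. On day 4 in vitro the cultures received adeno-associated virus (1800000 IFU/ml), and total RNA was taken on day 14. The virus carried an shRNA against Ncoa3 (3 arrays) or a control shRNA (3 arrays), 1 of each in experiments 1, 2 and 3. Both groups thus share the virus and the FUDR, and the sources used here do not name the promoter that drives the shRNA.

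Potassium channels let potassium leave the cell and so pull the membrane towards rest. Kv channels open on depolarisation and repolarise the spike, inward rectifiers and two-pore channels set the resting potential, and calcium-activated channels follow spikes and calcium entry. In hippocampal neurons these channels shape firing, dendritic signals and transmitter release.

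The labels matched the targeted gene. Ncoa3 had 7.60, 7.60 and 7.45 in Ncoa3 shRNA arrays, against 8.63, 8.72 and 8.22 in control shRNA arrays, as log2 signal after quantile normalization. The difference was -0.97 ± 0.142 (SE; limma's adjusted p = 0.00747), and it missed the threshold without experiment 1 (0.134) or experiment 2 (0.123). The neuronal markers were bright, with all 13 measured above the median gene (7.89). The deposited array medians were 6.81 to 6.97 with Ncoa3 shRNA and 7.08 to 7.25 with control shRNA, and genes as a whole had a median deposited difference of -0.25. All signals, differences and tests below therefore come from values quantile-normalised over all 6 arrays, unless called deposited. Between 8881 and 13476 of 36685 probe sets had the same deposited value on a pair of Ncoa3 shRNA arrays, and 8680 to 13979 on a pair of control shRNA arrays, against 0 to 2 on a pair from different groups. Any processing that went with the group and the shRNA cannot be told apart, and shared values can make a spread within a group too small. Signals of different probe sets do not rank genes by RNA.

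As a family, potassium channel genes did not move one way. Their median log2 difference (Ncoa3 shRNA minus control shRNA) was 0.020, beside 0.0084 over all genes, and single differences ran from -0.49 for Kcnj1 to 0.62 for Kcnk12. With limma's test and an adjusted p of 0.05 over all genes, 9 members rose, 4 fell and 73 did not pass. Over all genes 10.5% were higher and 9.04% lower by the same rule, so that the share of members called higher (10.5%) lay at the background. The share called lower was 4.65%. The background varied with signal. Of the 50 members above the median gene, 6 were higher (12%) and 1 lower (2%), beside 5.85% and 4.59% of all such genes. Of the 36 at or below it, 3 were higher and 3 lower (8.33% each), beside 15.1% and 13.5% of all such genes. These shares were not tested against each other. The 9 that rose were Kcnk12, Kcnj12, Kcnk15, Kcnk6, Kcnj4, Kcng4, Kcnk1, Kcne2 and Kcnmb3, of which Kcne2 and Kcnmb3 stood below 0 in the deposited values (-0.052 and -0.060), Kcne2 past the test there as lower. The 4 that fell were Kcnj1, Kcnk18, Kcnu1 and Kcnh8, which were lower in the deposited values too, by wider margins (-0.76, -0.73, -0.66 and -0.62). In 16 members every Ncoa3 shRNA array lay above every control shRNA array (21.5% of all genes did so), and in 14 every one lay below (19% of all genes).

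**Figure D1:**
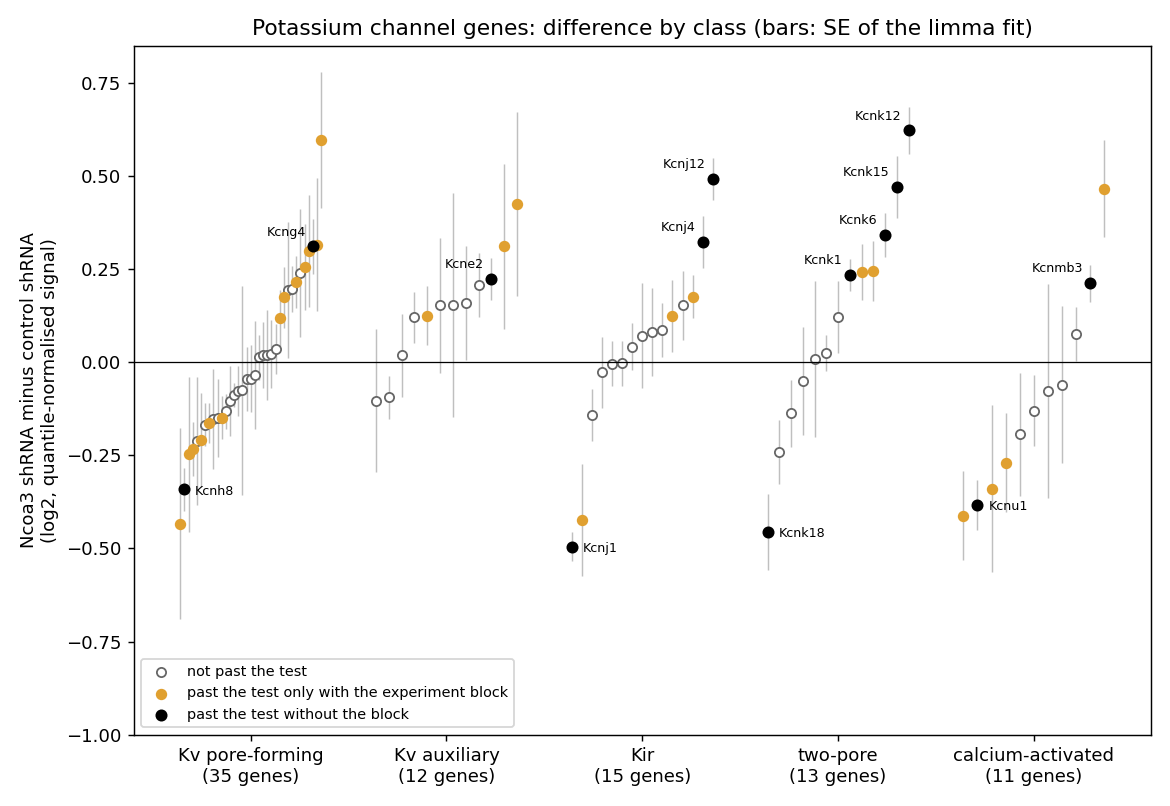
Difference in quantile-normalised log2 signal (Ncoa3 shRNA minus control shRNA, 3 arrays each) of each of the 86 potassium channel genes, sorted within its class. Bars are the SE of the limma fit. Black points passed limma's test, orange points passed it only with the experiment as a block, and the named black points reach 0.62 (Kcnk12) and -0.49 (Kcnj1), while Kcne2 and Kcnmb3 lay below 0 in the deposited values.

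The number of calls depended on how the experiments entered the fit. With the experiment as a block, 24 members were higher (20.8% of all genes were) and 14 lower (18.6% of all genes), and these held all 13 members called without it. In the deposited values 2 members were higher (Kcnk12 and Kcnj12) and 34 lower, where 3.97% of all genes were higher and 43.3% lower. Without both arrays of experiment 1 no member passed limma's test, although 13 had an unadjusted p under 0.05, and 223 of all genes passed. Without experiment 2 no member and 0 of all genes passed limma's test, with 14 members and 3071 genes in all under an unadjusted p of 0.05. Without experiment 3, 23 members were higher (24.4% of all genes were) and 14 lower (21.6% of all genes). Leaving out Ncoa3 shRNA replicate 1 or 2 gave 3 higher members (4.41% and 3.99% of all genes) and 2 lower ones (4.09% and 4.34%). Leaving out control shRNA replicate 1 or 2 gave 2 higher members (4.11% and 4.83% of all genes) and 1 lower (3.74% and 4.02%). The counts did not drop without Ncoa3 shRNA replicate 3, with 9 higher (12.2% of all genes) and 5 lower (9.06%), and stood at 8 higher (9.77%) and 5 lower (10.5%) without control shRNA replicate 3.

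**Figure D2:**
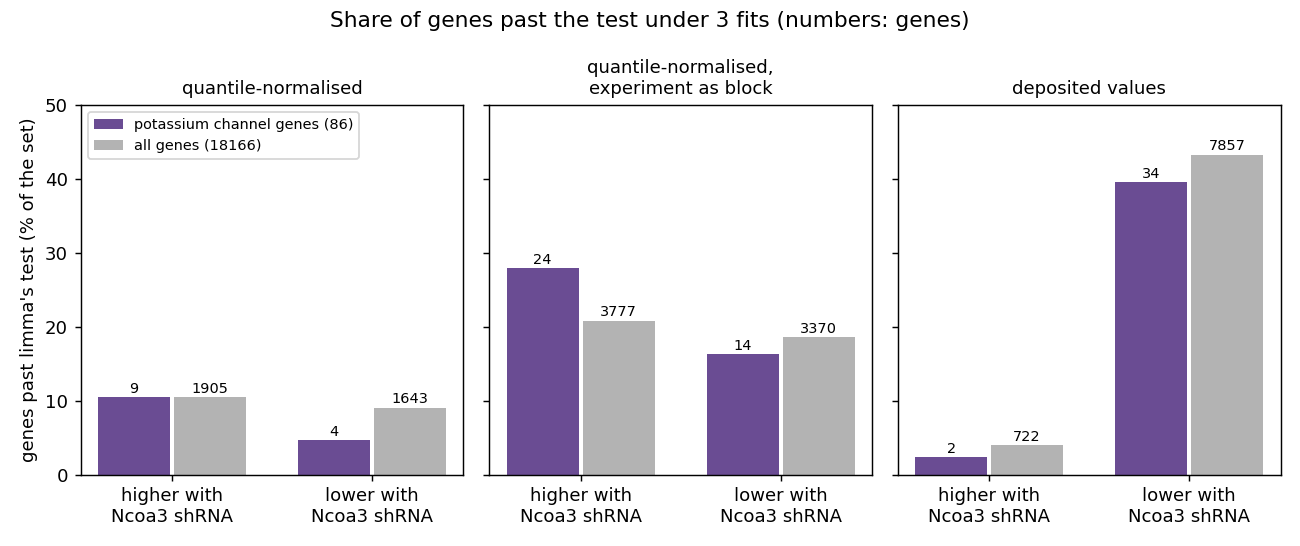
Share of the 86 potassium channel genes and of all 18166 genes past the threshold of limma's test (adjusted p of 0.05), higher or lower with Ncoa3 shRNA, in the quantile-normalised values, the same with the experiment as a block, and the deposited values. Numbers over the bars are genes, and the potassium channel genes went with the background in the deposited values (34 lower of 86, against 43.3% of all genes).

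Some of the called members were dim. The 95th percentile of 1343 olfactory and vomeronasal receptor genes, which neurons of this kind are not known for, was 7.02, and 21 potassium channel genes lay at or below it. Of these 21, 2 rose (Kcng4 and Kcnmb3) and 3 fell (Kcnj1, Kcnk18 and Kcnu1). Of the receptor genes themselves, 18.2% passed as higher and 18.3% as lower. Among the 65 brighter members 7 rose (10.8%) and 1, Kcnh8, fell (1.54%), beside 10.5% and 9.04% of all genes, dim ones included.

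Two-pore channels, which leak potassium at all voltages, held 4 of the 9 rises. Of 13 genes 4 rose (10.5% of all genes did), 1 fell (9.04% of all genes) and 8 did not pass. The median difference was 0.12, and the class was not tested against the other genes. The deposited values gave 1 higher two-pore gene and 2 lower ones (3.97% and 43.3% of all genes).

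Kcnk12, a member of the subfamily known for inhibition by halothane, had signals of 10.26, 10.27 and 10.32 in Ncoa3 shRNA arrays, against 9.63, 9.62 and 9.73 in control shRNA arrays. The groups did not overlap, but the spread within them can be too small. The means were 10.28 ± 0.0347 and 9.66 ± 0.0621 (SD, n = 3 each), a difference of 0.62 ± 0.0618 (SE) or 1.54-fold, with limma's adjusted p = 0.00212. In the deposited values the difference was 0.38, and the 3 control shRNA arrays shared 1 value. The deposited Ncoa3 shRNA values were 10.17, 10.17 and 10.16. The spread within both groups thus came almost wholly from the normalization. Without experiment 1 or experiment 2 limma's adjusted p was 0.0941 and 0.0879, at differences of 0.62 and 0.61.

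Kcnk15, of the acid-sensitive subfamily, had 8.19, 8.20 and 7.98 in Ncoa3 shRNA arrays, against 7.61, 7.62 and 7.73 in control shRNA arrays. It rose by 0.47 ± 0.0838 (SE; limma's adjusted p = 0.0139), with experiment 3 showing the smallest gap, and stood at 0.20 in the deposited values (0.102). Kcnk6 and Kcnk1 encode weak inward rectifiers of the subfamily in which two-pore channels were first found. Kcnk6 had 7.58, 7.59 and 7.47 in Ncoa3 shRNA arrays, against 7.20, 7.22 and 7.18 in control shRNA arrays, a difference of 0.34 (limma's adjusted p = 0.0127). The second Kcnk6 probe set (17631385) differed by only 0.059, with 7.15, 7.17 and 7.02 in Ncoa3 shRNA arrays against 7.12, 7.01 and 7.04 in control shRNA arrays, and the Kcnk6 call was lost when both probe sets were averaged. The probe sets of this gene thus disagree. Kcnk1 had 11.61, 11.68 and 11.62 in Ncoa3 shRNA arrays, against 11.39, 11.38 and 11.44 in control shRNA arrays, and rose by 0.23 ± 0.0438 (SE; limma's adjusted p = 0.0162). In the deposited values Kcnk1 and Kcnk6 stood at 0.063 and 0.062 and did not pass (limma's adjusted p = 0.185 and 0.244).

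Kcnk18, whose channel is known for activation through calcineurin, was the two-pore gene that fell. It had 6.75, 6.75 and 6.65 in Ncoa3 shRNA arrays, against 7.09, 7.04 and 7.38 in control shRNA arrays, a difference of -0.46 ± 0.102 (SE; limma's adjusted p = 0.0278). Its groups did not overlap, the control shRNA array of experiment 3 stood highest, and the call was lost after median centring (0.0946). The mechanically gated channel gene Kcnk4 and the alkaline-activated channel gene Kcnk5 stood at 0.25 and 0.24 and passed only with the block (limma's adjusted p = 0.0317 and 0.0100), with deposited differences below 0 (-0.022 and -0.042), and both were picked with their values known. The acid-sensitive channel gene Kcnk9 differed by 0.0092 and the mechanically gated Kcnk10 by -0.14, neither past the test. Kcnk9 stood at -0.19 in the deposited values. The calls of Kcnk1, Kcnk6 and Kcnk15 were lost without control shRNA replicate 1 or 2 or Ncoa3 shRNA replicate 1 or 2, and without experiment 1 or 2, with adjusted p up to 0.252, 0.295 and 0.266. That of Kcnk18 was lost in 7 of the 9 such fits, all but those without experiment 3 and without control shRNA replicate 3 (up to 0.219).

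**Figure D3:**
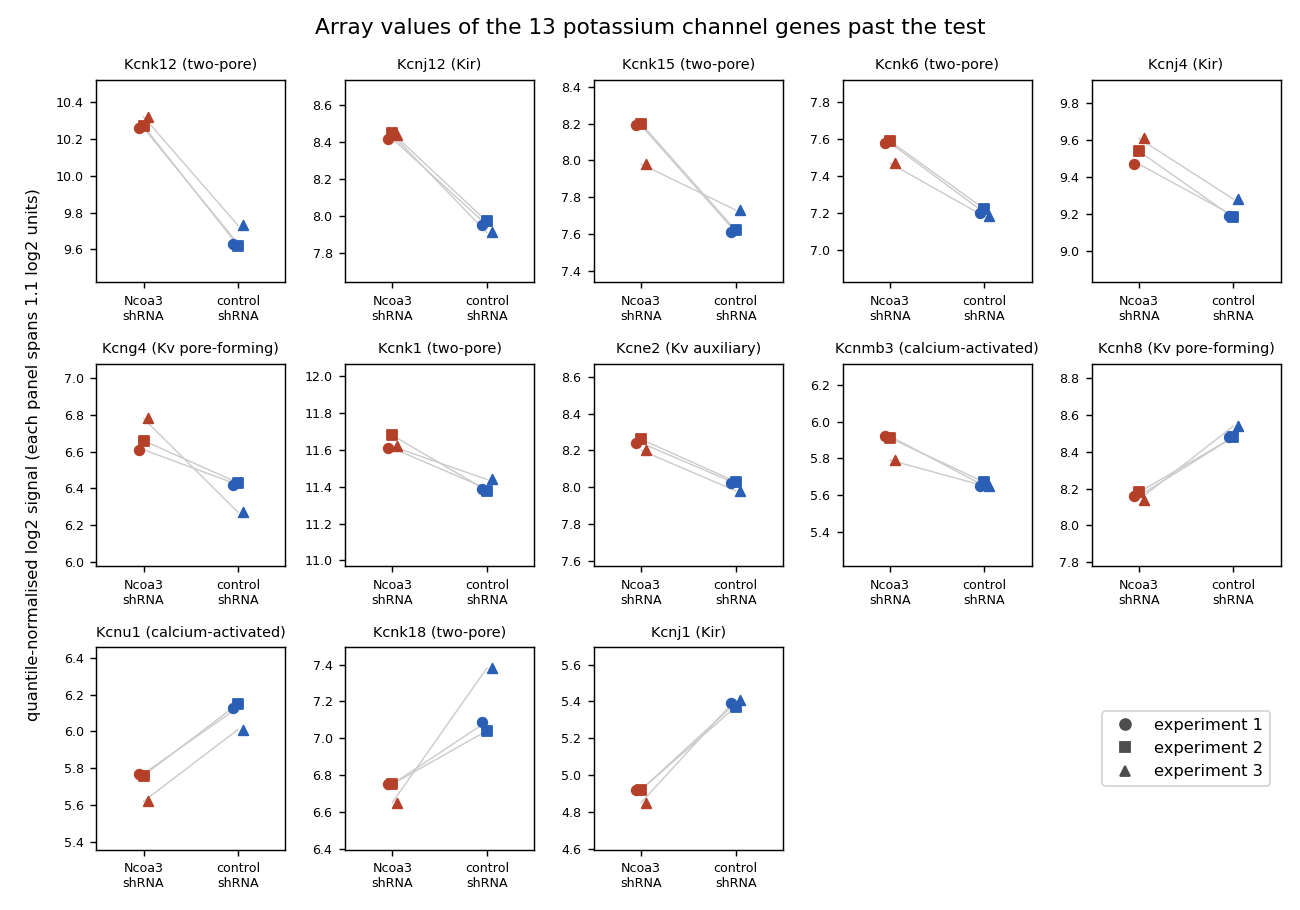
Quantile-normalised log2 signal on each array of the 13 potassium channel genes past limma's test. Each panel spans the same height, Ncoa3 shRNA arrays stand left of control shRNA arrays, marker shapes are experiments, and lines join the arrays of an experiment. The groups do not overlap in any of the 13 panels, but these genes were picked by the test on the same arrays. The lack of overlap thus adds no support, and 21.5% of all genes lay apart as higher and 19% as lower. Kcnk12 shows the widest rise (0.62).

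Of the 15 inward rectifier genes 2 rose (10.5% of all genes did), 1 fell (9.04% of all genes) and 12 did not pass. Their median difference was 0.072. Both rises were in strong inward rectifiers, which hold neurons near rest. Kcnj12 had 8.42, 8.45 and 8.44 in Ncoa3 shRNA arrays, against 7.95, 7.97 and 7.91 in control shRNA arrays. It rose by 0.49 ± 0.0564 (SE; limma's adjusted p = 0.00338), but the 3 arrays of a group shared 1 deposited value in both groups, so its spread came from the normalization alone. The deposited difference was 0.21. Kcnj4 had 9.47, 9.54 and 9.61 in Ncoa3 shRNA arrays, against 9.19, 9.18 and 9.28 in control shRNA arrays. The rise of Kcnj4 was 0.32 ± 0.0696 (SE; limma's adjusted p = 0.0252) and only 0.055 in the deposited values (0.0597), and it lay at the threshold after normalization over genes only (0.05).

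Kcnj1, the channel known from potassium secretion in the kidney, had the largest fall among the members that passed. It had 4.92, 4.92 and 4.85 in Ncoa3 shRNA arrays, against 5.39, 5.37 and 5.41 in control shRNA arrays. That is a difference of -0.49 ± 0.0389 (SE; limma's adjusted p = 0.00113) at signals near the median of the receptor genes (4.82). The calls of Kcnj12 and Kcnj1 were lost without experiment 1 (limma's adjusted p = 0.161 and 0.0604) or experiment 2 (0.141 and 0.0687). The call of Kcnj4 was lost in 6 of 9 fits with arrays left out, those without control shRNA replicate 1 or 2, Ncoa3 shRNA replicate 1 or 2, or experiment 1 or 2 (adjusted p up to 0.298).

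Subunits of the G protein-gated channels, which slow firing when inhibitory receptors are active, did not pass the test without the block. Kcnj3 had 11.40, 10.87 and 11.08 in Ncoa3 shRNA arrays, against 11.73, 11.45 and 11.43 in control shRNA arrays. Its groups did not overlap, and its difference of -0.42 ± 0.151 (SE) missed the threshold (limma's adjusted p = 0.107) but passed with the block (0.0185). Kcnj5 stood at -0.14, with all Ncoa3 shRNA arrays below all control shRNA arrays, Kcnj6 at -0.0023 and Kcnj9 at 0.072, none past the test with or without the block. Kcnj5 and Kcnj9 complete the set of these subunits and were added with their values known, and the genes were not tested against each other. The glial channel gene Kcnj10, which clears potassium in astrocytes, differed by -0.026 (limma's adjusted p = 0.882). The block gave 4 higher and 2 lower inward rectifier genes (20.8% and 18.6% of all genes). The deposited values gave 1 higher and 9 lower (3.97% and 43.3% of all genes).

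Pore-forming Kv genes were the largest class and had few calls. Of 35 genes 1 rose (10.5% of all genes did), 1 fell (9.04% of all genes) and 33 did not pass. The median difference was -0.044. The block gave 8 higher and 7 lower genes (20.8% and 18.6% of all genes). Limma on the deposited values gave 0 higher and 16 lower (3.97% and 43.3% of all genes). Kcng4, a silent subunit that modifies other Kv channels, had 6.61, 6.66 and 6.78 in Ncoa3 shRNA arrays, against 6.42, 6.43 and 6.27 in control shRNA arrays. It rose by 0.31 ± 0.0729 (SE; limma's adjusted p = 0.0322), and the call was lost in 8 of the 9 fits with arrays left out, all but the one without experiment 3 (up to 0.259). In the deposited values Kcng4 stood at 0.024 (limma's adjusted p = 0.855), and after median centring it missed the threshold (0.111). Kcnh8, a channel of the ether-a-go-go family, had 8.16, 8.18 and 8.14 in Ncoa3 shRNA arrays, against 8.48, 8.48 and 8.54 in control shRNA arrays. Its fall was -0.34 ± 0.0578 (SE; limma's adjusted p = 0.0119). The call was lost without control shRNA replicate 1 or 2, Ncoa3 shRNA replicate 1 or 2, or experiment 1 or 2 (up to 0.276). The 3 Ncoa3 shRNA arrays shared 1 deposited value of Kcnh8 (8.02), and likewise of Kcnk6 (7.41). The 3 control shRNA arrays shared 1 deposited value of Kcng4, of Kcnj4 and of Kcne2, so the spreads of these genes can be too small.

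The 4 brightest Kv probe sets did not pass the test. Kcnd2, the main A-type channel of hippocampal dendrites, had 12.18, 12.15 and 12.17 in Ncoa3 shRNA arrays, against 12.25, 12.25 and 12.27 in control shRNA arrays. Its difference was -0.089 (limma's adjusted p = 0.110), and 0.051 after median centring, so its sign depended on the scaling. Kcnd3, of the same family, differed by -0.16 (limma's adjusted p = 0.0851, and 0.0320 with the block). The axonal channel genes Kcna1 and Kcna2 stood at 0.17 (0.192, and 0.0404 with the block) and -0.15 (0.376).

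Kcnc2 and Kcnq3 had the widest differences among Kv genes without passing. Kcnc2, a channel of fast-spiking neurons, had 8.65, 8.02 and 8.65 in Ncoa3 shRNA arrays, against 7.95, 7.76 and 7.82 in control shRNA arrays. The groups did not overlap, but experiment 2 differed less than the others. Its difference of 0.60 ± 0.183 (SE) gave limma's adjusted p = 0.0710, and 0.0367 with the block. Kcnq3, a subunit of the M-current that damps repetitive firing, had 8.82, 8.75 and 9.57 in Ncoa3 shRNA arrays, against 9.32, 9.31 and 9.81 in control shRNA arrays. Its value was lower with Ncoa3 shRNA within each experiment, while experiment 3 lay above the other experiments in both groups. The difference was -0.43 ± 0.256 (SE; limma's adjusted p = 0.297, and 0.0285 with the block). Kcnq3 and Kcnc2 were picked with their values known.

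Ncoa3 works through nuclear receptors, many of which bind the half-site AGGTCA, so the promoters were searched for these letters on both strands. RefSeq promoters (GRCr8, 250 bases before to 50 after the start) were at hand for 60 of the 86 genes. Of these, 4 held the motif (6.67%), beside 16.2% of all 33469 promoters, and none of the 6 promoters of members past the test held it. Each channel gene entered with its first listed promoter only, whereas the 16.2% counted every listed promoter. These shares were thus not counted alike. Among those 4 the Kcnc2 promoter was the only one with 2 copies, starting at positions -212 and -163 from the start site. Its 250 bases before the start (chr7:49587364-49587613, plus strand) are shown for that reason, with the motif in capitals.
Kcnc2: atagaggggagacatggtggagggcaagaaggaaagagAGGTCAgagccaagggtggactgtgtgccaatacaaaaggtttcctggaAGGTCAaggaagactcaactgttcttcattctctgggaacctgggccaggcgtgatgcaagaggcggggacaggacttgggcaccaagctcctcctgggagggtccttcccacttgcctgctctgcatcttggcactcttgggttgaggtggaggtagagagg
The match is a description of letters and not a shown binding site.

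Kv auxiliary subunits tune the gating and surface level of Kv channels. Of 12 genes 1 rose, 0 fell (0 at an unadjusted p of 0.05 in limma) and 11 did not pass, and the median difference was 0.15. Of all genes 10.5% rose and 9.04% fell. The block gave 4 higher and 0 lower genes by limma's test (20.8% and 18.6% of all genes). The deposited values gave 0 higher and 3 lower (3.97% and 43.3% of all genes). Kcne2, a single-span subunit that joins several Kv channels, had 8.24, 8.26 and 8.20 in Ncoa3 shRNA arrays, against 8.02, 8.03 and 7.98 in control shRNA arrays. Relative to the common distribution it rose by 0.22 ± 0.0569 (SE; limma's adjusted p = 0.0412), whereas its deposited difference of -0.052 passed as lower (0.0187), so its direction rests on the scaling. Normalization over genes only ended the call (0.0565). The call was lost without any of the arrays except Ncoa3 shRNA replicate 3, and without experiment 1 or 2 (adjusted p up to 0.456).

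Kcnip1, Kcnip2 and Kcnip3 encode calcium-binding subunits of A-type channels. Kcnip1 had 10.47, 10.89 and 10.93 in Ncoa3 shRNA arrays, against 10.00, 10.67 and 10.68 in control shRNA arrays, and was higher with Ncoa3 shRNA in all 3 experiments. Its difference of 0.31 ± 0.222 (SE) gave limma's adjusted p = 0.382, and 0.0349 with the block, but was 0.087 without control shRNA replicate 1. Kcnip3 had 11.01, 10.88 and 11.42 in Ncoa3 shRNA arrays, against 10.38, 10.94 and 11.53 in control shRNA arrays. Its groups overlapped, and its difference was 0.15 (limma's adjusted p = 0.767) and -0.042 in the deposited values. Kcnip2 stood at -0.094 (0.314), with no sign kept after median centring (0.0010), and the cytoplasmic subunit gene Kcnab2 at -0.10 (0.758). Kcne5, a further single-span subunit, had 7.93, 8.04 and 8.71 in Ncoa3 shRNA arrays, against 7.59, 7.67 and 8.15 in control shRNA arrays. It passed only with the block (limma's adjusted p = 0.0134, against 0.288 without it), and was chosen after its values were seen.

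In the calcium-activated class the channel and its neuronal auxiliary subunit stood in opposite directions. Of 11 genes 1 rose (10.5% of all genes did), 1 fell (9.04% of all genes) and 9 did not pass. The median difference was -0.13. Kcnma1, the pore of the large-conductance channel that cuts spikes short, had 10.30, 10.24 and 10.58 in Ncoa3 shRNA arrays, against 10.77, 10.64 and 10.94 in control shRNA arrays. Its difference was -0.41 ± 0.119 (SE; limma's adjusted p = 0.0608, and 0.00749 with the block). Kcnmb4, the subunit of that channel found mostly in neurons, had 9.61, 10.08 and 9.86 in Ncoa3 shRNA arrays, against 9.27, 9.45 and 9.43 in control shRNA arrays. Its difference was 0.47 ± 0.130 (SE; limma's adjusted p = 0.0544, 0.0173 with the block and 0.0461 after median centring). In the deposited values Kcnmb4 stood at 0.20 (limma's adjusted p = 0.274) and Kcnma1 at -0.63 (0.0058). With arrays left out, Kcnmb4 passed in 1 of 9 fits and Kcnma1 in 2. In both genes the groups did not overlap, and the 2 differences were not tested against each other.

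The members of this class that passed without the block were dim. Kcnu1, the sperm channel gated by alkaline pH, had 5.77, 5.76 and 5.62 in Ncoa3 shRNA arrays, against 6.13, 6.15 and 6.01 in control shRNA arrays. It fell by 0.38 ± 0.0666 (SE; limma's adjusted p = 0.0129), with 1 deposited value shared by the 3 arrays in either group, and the call was lost without control shRNA replicate 1 or 2 or experiment 1 or 2 (up to 0.195). Kcnmb3, another auxiliary subunit of the large-conductance channel, had 5.92, 5.91 and 5.79 in Ncoa3 shRNA arrays, against 5.65, 5.67 and 5.65 in control shRNA arrays. It rose by 0.21 ± 0.0497 (SE; limma's adjusted p = 0.0320) where the deposited difference was -0.060, and missed the threshold after median centring (0.0875). The call was kept in 2 of the 9 fits with arrays left out, those without Ncoa3 shRNA replicate 3 and without experiment 3 (up to 0.388). The small-conductance channel gene Kcnn3 stood at -0.19 (limma's adjusted p = 0.471), and the sodium-activated channel gene Kcnt1 at -0.060 (0.879). Kcnt2, its relative, stood at -0.34 (0.347) and passed with the block (0.00723). The block gave 2 higher and 4 lower genes of the class (20.8% and 18.6% of all genes). Limma on the deposited values gave 0 higher and 4 lower (3.97% and 43.3% of all genes).

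Of 20 measured genes whose products join, traffic or share membranes with these channels, 2 rose, 1 fell and 17 did not pass. Of all genes 10.5% rose and 9.04% fell. Hcn2, a pacemaker channel gene, had 9.93, 9.88 and 9.70 in Ncoa3 shRNA arrays, against 9.50, 9.49 and 9.25 in control shRNA arrays, a difference of 0.42 (limma's adjusted p = 0.0379), which was 0.17 in the deposited values (0.387). Lrrc52, an auxiliary subunit of the Kcnu1 channel, stood at 0.28 (limma's adjusted p = 0.0270), with a deposited difference of -0.0068. It was dim, with a mean signal of 6.85, below the 95th percentile of the receptor genes (7.02). Dpp6, which brings A-type channels to dendrites, was lower on all 3 Ncoa3 shRNA arrays than on the control shRNA arrays, with a difference of -0.13 (limma's adjusted p = 0.0455) whose sign turned after median centring (0.0056). The block gave 3 higher and 4 lower of these genes (20.8% and 18.6% of all genes). Limma on the deposited values gave 0 higher and 8 lower (3.97% and 43.3% of all genes).

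Some members also differed between experiments. In a fit with shRNA and experiment, 20 of the 86 genes passed limma's F test of experiment, beside 18.8% of all genes, with adjusted p from 0.0331 to 0.0495. Experiment 3 lay above both others in 9 of the 20 and below both in 11. Of those below, Kcns1, Kcns3 and Kcnu1 had 1 deposited value in each group. Their differences between experiments thus came from the normalization alone. Kcnh7, an ether-a-go-go related channel, had 9.35 and 9.32 in experiment 3 (Ncoa3 shRNA and control shRNA), against 8.64 and 8.78 in experiment 1 and 8.49 and 8.61 in experiment 2. Its shRNA groups overlapped, while both arrays of experiment 3 stood above the other 4. Kcnk9 ran the other way, with 10.60 and 10.57 in experiment 3, against 11.24 and 11.16 in experiment 1 and 10.88 and 10.95 in experiment 2. Kcnt2 had 8.54 and 8.90 in experiment 3, against 8.14 and 8.44 in experiment 1 and 7.89 and 8.25 in experiment 2. The count was not firm, since 16 of the 20 had an adjusted p above 0.04, and 3 genes passed in the deposited values and 4 after quantile normalization over genes only. Kcnh7, Kcnk9, Kcnt2 and Kcns1 were chosen after their values were seen. By shRNA Kcns1 passed with the block (limma's adjusted p = 0.0209) but not without it (0.332).

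**Figure D4:**
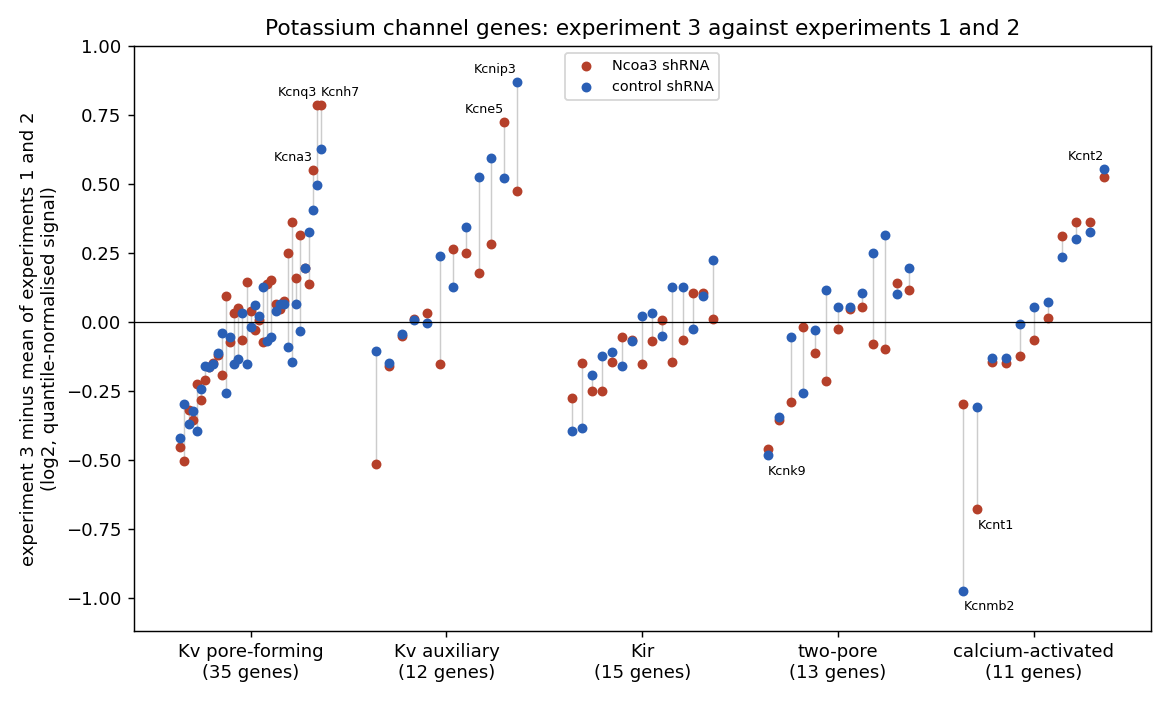
Signal in experiment 3 minus the mean of experiments 1 and 2 for each potassium channel gene, on the quantile-normalised log2 scale, shown apart for the Ncoa3 shRNA and the control shRNA arrays and joined by a line. Genes are sorted within their class by the mean of both, and names mark the widest mean shifts, such as Kcnh7 above 0 and Kcnk9 below 0 in both groups.

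Some markers of other cells were called by shRNA, in mixed directions, beside 19.5% of all genes called in either direction. With the block 20.8% of all genes were higher and 18.6% lower, and 18.8% passed limma's F test of experiment. The marker lists were not tested against these shares. Of 8 measured astrocyte markers 6 were highest in experiment 3, where their mean signal was 9.49 and 9.45 (Ncoa3 shRNA and control shRNA), against 9.04 to 9.21 on the other 4 arrays. By shRNA the astrocyte means overlapped, and Fgfr3 rose, while Slc1a2 was lower with the block only (-0.29, limma's adjusted p = 0.0235). Of the 7 microglia markers, all dimmer than the median gene, Cx3cr1 and Aif1 rose by 0.99 and 0.43, and Csf1r was higher with the block only (0.17, limma's adjusted p = 0.0383). Their mean signals were 6.31 to 6.54 with Ncoa3 shRNA and 6.12 to 6.19 with control shRNA. Of 5 fibroblast markers Dcn and Pdgfra rose, by 0.52 and 0.32, while with the block Col1a2 was higher (0.13, limma's adjusted p = 0.0446) and Col1a1 lower (-0.21, 0.0241). The means were 8.13 to 8.42 with Ncoa3 shRNA and 7.87 to 8.12 with control shRNA. Of 13 neuronal markers Gad2 fell by 0.42 and Rbfox3 was lower with the block only (-0.15, limma's adjusted p = 0.0206). The means were 12.29 to 12.39 with Ncoa3 shRNA and 12.39 to 12.40 with control shRNA. Of 8 markers of the oligodendrocyte lineage Pdgfra rose, Sox10 and Mog fell and Olig2 was higher with the block only (0.17, limma's adjusted p = 0.0388), with means of 7.76 to 7.85 in both groups. Of 5 endothelial and mural markers 0 passed limma's test and 0 had an unadjusted p under 0.05, while Cldn5 was lower with the block (-0.12, limma's adjusted p = 0.0177), with means of 6.70 to 6.80 with Ncoa3 shRNA and 6.72 to 6.79 with control shRNA. Median centring ended the calls of Gad2 (limma's adjusted p = 0.0693) and Cx3cr1 (0.0538). The same scaling made the neuronal markers Tubb3, Syp, Syn1 and Slc17a7 pass as higher (limma's adjusted p = 0.0195, 0.0115, 0.0403 and 0.0138). The neuronal calls thus depended on the scaling. The markers' part in the channel results was not tested, and in such bulk RNA fewer cells of a type and less RNA per cell cannot be told apart.

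After the group means were removed, the genes most like Kcnk12 over the 6 arrays, of 9082 brighter than the median, were Gnl1, Pgrmc2, Ksr1, Armh4 and Lage3, with Pearson r of 0.998 to 0.999. These r describe 6 arrays that share experiments and a normalization, and each of these genes, like Kcnk12, had a deposited value that repeated between arrays of a group. Deposited Kcnk12 was 10.17, 10.17 and 10.16 with Ncoa3 shRNA and 9.79 on all 3 control shRNA arrays. The profile compared thus came almost wholly from the normalization, and shared regulation was not tested.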

How the data were processed

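RNA of 6 cultures was measured on single-colour Affymetrix arrays, 3 with Ncoa3 shRNA and 3 with control shRNA. The authors deposited log2 signals, 1 for each probe set on an array. The submitters' processing notes name Affymetrix Expression Console. The sources used here do not give the summarisation settings, and the number of arrays limits the precision. Of 36685 probe sets, 18511 had 1 gene symbol in the platform table, 575 several and 17599 none listed.

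The values were quantile-normalised over all probe sets, the brightest probe set by its mean over 6 arrays was kept for each gene, and limma 3.58.1 (R 4.3.3) was fitted to all 18166 genes with a trended prior and Benjamini-Hochberg adjustment. The scripts were tested on simulated data. Nothing in the labels says whether the experiments used separate litters, so p-values measure the spread between these arrays. The labels number shared experiments, and deviations from group means correlated at 0.549 to 0.783 between arrays of 1 experiment and at -0.727 to 0.497 otherwise, so the blocked fit is printed where a call changes with it. Named genes are all members past the test and the 4 brightest of each class, and exceptions are stated. The alternatives were the deposited values, median centring, the block, brighter genes only, no trend, the mean over probe sets, arrays left out and, added after seeing the data, normalization over genes only. Members and lists were chosen with earlier results of these data known, and the promoter motif after the data were seen.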

Additional observations from a re-analysis of the deposited data

How the results depend on the processing

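With the replicate block 7147 of all genes passed, and 24 potassium channel genes were higher and 14 lower. The deposited values gave 8579 genes in all, 2 members higher and 34 lower at a median of -0.24, and with the replicate block on them 10932, 2 and 47 at a median of -0.24. There Kcne2 (-0.052), Kcnip3 (-0.042), Kcnk9 (-0.19) and Kcnmb3 (-0.060) changed sign. Median centring gave a median of 0.036 and turned Kcnd2 (0.051), Kcnip2 (0.0010) and Kcnj6 (0.019). It ended the calls of Kcng4, Kcnk18 and Kcnmb3, and added Kcnmb4 as higher and Kcns3 as lower (-0.24, limma's adjusted p = 0.0248). Kcns3 also passed with the block (limma's adjusted p = 0.00588, against 0.0749 without it). It was dim, with a mean signal of 6.73, below the 95th percentile of the receptor genes (7.02). Its 3 arrays shared 1 deposited value in each group, so its spread came from the scaling alone. Kcns3 is named for this added call and for its shared values. Among the 9083 genes above the median gene, of which 50 were members, 433 passed, with 4 members higher (2.42% of those genes) and 1 lower (2.35%) at a median of 0.0034. Normalization over genes only, chosen after seeing the data, gave a median of 0.017 and ended the calls of Kcne2 and Kcnj4. The 20 members past the test of experiment became 3 in the deposited values, 4 with normalization over genes only and 9 with no trend. Leaving out arrays or experiments gave 0 to 8354 genes in all, 0 to 23 members higher and 0 to 14 lower, medians of 0.019 to 0.054, and -1.15 to -0.87 for Ncoa3. It turned the sign of Kcnab2 (-0.27 to 0.070), Kcnip3 (-0.13 to 0.44), Kcnj10 (-0.088 to 0.048), Kcnj6 (-0.047 to 0.027), Kcnk9 (-0.16 to 0.16) and Kcnt1 (-0.20 to 0.17), none of which passed the test. The cause was not tested. With 3 arrays a group, an exact permutation test of a single gene cannot go below p = 0.1.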
